A study of Mus musculus with 9 samples.

Results

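The 58 genes described here are listed genes of regulated exocytosis, in which a hormone granule is brought to the plasma membrane and fused there. They comprise 4 syntaxins, 2 members of the SNAP-25 family, 6 vesicle-associated membrane proteins (VAMPs), 4 syntaxin-binding proteins, 15 synaptotagmins, 2 Doc2 proteins, 6 priming factors of the Munc13 and CAPS families, 3 complexins, 9 active zone proteins, 6 Rab3 proteins and rabphilins, and Nsf. The genes were chosen by name, with earlier results of these data known, and all 58 were found among the 55536 genes in each table. Of the 58, 49 had enough counts for a test, among 15896 genes tested in all. RNA was extracted from islet cells of C57B/L6 mice at 12 weeks of age. The islets had been kept in culture overnight, and the dispersed cells were separated by FACS on 2 surface proteins. Beta-enriched cells were CD24 low and CD71 positive, alpha-enriched cells were CD24 low and CD71 negative, and delta-enriched cells were CD24 high, with 3 libraries of each. No treatment or genotype separated the groups. The subsets are enriched for a cell type and not pure, and the labels do not say whether the 3 libraries of a subset came from separate mice or sorts. The p-values therefore measure the spread between these libraries, which may be technical. In bulk RNA, fewer cells that express a gene and less RNA per cell cannot be told apart.

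Membrane fusion in regulated secretion is driven by SNARE proteins: a VAMP on the granule zips together with a syntaxin and a SNAP-25 protein on the plasma membrane, and the ATPase NSF takes the spent complex apart again. Munc13 and CAPS proteins prime docked granules for release, complexins bind the assembled SNAREs, and synaptotagmins and Doc2 proteins couple fusion to calcium. RIM, RIM-binding, ELKS, bassoon and piccolo proteins form the scaffold that holds granules and calcium channels together, and Rab3 proteins link the granule to that scaffold. Islet cells use this machinery, first described at neuronal synapses, to release insulin, glucagon and somatostatin.

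The libraries held 5663141 to 9529920 expected counts, the estimated numbers of reads per gene. The hormone transcripts named in the labels went with them: Ins2 was highest in the 3 beta libraries, Gcg in the 3 alpha libraries and Sst in the 3 delta libraries. Ppy and Pyy, also islet hormones, were high in both alpha and delta. Mean Ppy in delta was 84.9% of its alpha level, and in beta 2.06% of alpha and 2.43% of delta. Mean Pyy was highest in delta, with alpha at 36.7% and beta at 0.909% of the delta level. The part of cells that express Ppy or Pyy was not tested. Ins2 in alpha stood at 8.96% of its mean beta level, Gcg in delta at 4.90% of its mean alpha level and Sst in alpha at 0.219% of its mean delta level. A ribosomal RNA locus took 34.4% of the counts in beta replicate 2, against 3.15% to 5.37% in the other 8 libraries. The 12 acinar markers summed to 17.5 to 55.5 CPM in the beta libraries, 53.1 to 325 CPM in the alpha libraries and 186 to 2349 CPM in the delta libraries, with the highest sum in delta replicate 3. The 6 Schwann cell markers, of which Cdh19 and Foxd3 had no counts, summed to 5.94 to 11.5 CPM in beta, 11.1 to 16.4 CPM in alpha and 15.2 to 29.8 CPM in delta. The 7 markers of autonomic neurons, of which Hand2 and Chat had no counts, summed to 0 to 0.343 CPM in beta, 0 to 0.252 CPM in alpha and 0 to 0.546 CPM in delta. The 7 mesenchymal markers were highest in alpha, at 10.4 to 47.1 CPM against 0.128 to 0.514 CPM in beta and 0 to 1.91 CPM in delta. The 6 duct markers summed to 342 to 389.7 CPM in beta, 583 to 774 CPM in alpha and 165 to 316 CPM in delta, nearly all from Krt7 and Spp1. The 6 endothelial markers summed to at most 8.10 CPM in a library, with Plvap at 0, and the 6 immune markers to at most 3.80 CPM, with Ptprc and Cd3e at 0. The part of these other cells in the differences was not tested.

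Each subset had its own set of exocytosis genes at its highest level. Levels are given as CPM, counts scaled to library size with TMM factors, and differences as log2 ratios, the fitted log2 fold changes. A gene was called different where edgeR's quasi-likelihood test gave a Benjamini-Hochberg adjusted p under 0.05 over all 15896 genes. Between beta and alpha, 21 of the 49 tested members (42.9%) were called, against 26.6% of all genes tested. Of these members 13 were higher in beta and 8 lower, against 14.8% and 11.9% of all genes. Between beta and delta, 31 members (63.3%) were called, against 30.6% of all genes, 14 of them higher and 17 lower in beta, against 15.4% and 15.3% of all genes. Between alpha and delta, 24 members (49.0%) were called, against 24.3% of all genes, 9 higher and 15 lower in alpha, against 11% and 13.3% of all genes. A difference of at least 2-fold was called for 13, 18 and 12 members in the comparisons of beta with alpha, beta with delta and alpha with delta, against 13.5%, 15.8% and 12.6% of all genes. The libraries of the 2 subsets compared did not overlap in 32, 34 and 30 members, against 45.5%, 42.6% and 36.1% of all genes. The median log2 fold change of the members was 0.20 for beta over alpha, 0.0049 for beta over delta and -0.20 for alpha over delta, where all genes tested had medians of -0.019, -0.023 and -0.011. The comparisons share libraries and are not independent of each other. The counts against delta, in every form given here, include Syt6, Syt17 and Rims1. These genes passed the count filter only through the delta libraries, where they are high, so the counts and shares against delta are a description.

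Higher in beta than in both other subsets were 9 members (18.4%), against 8.48% of all genes tested: Snap25, Vamp4, Syt4, Syt13, Syt14, Rims3, Pclo, Rab3a and Rab3d. Higher in alpha than in both others were 4 members (8.16%), against 4.04% of all genes: Syt11, Syt16, Rims2 and Rab3c. Higher in delta than in both others were 12 members (24.5%), against 7.03% of all genes: Stxbp5l, Syt1, Syt5, Syt6, Syt17, Cadps2, Cplx2, Rims1, Bsn, Erc2, Rab3b and Rph3al. Of these 12, Syt6, Syt17 and Rims1 passed the count filter only through the delta libraries, where they are high, so their calls against delta support nothing and the share of 12 members is a description. At the other end, Cadps, Snap23 and Vamp3 were lower in delta than in both others, as were Snap25 and Syt4. Stx1a and Syt9 were lower in beta than in both others, as were Stxbp5l, Syt1, Syt16 and Rab3c. Syt2 was lower in alpha than in both others on counts, as were Pclo, Erc2, Rab3b and Rab3d. For Syt2, the log2 fold change of alpha over delta turned to 0.16 on log2(TPM + 1). At least 1 comparison was called in 35 members (71.4%), against 44% of all genes, and none in the other 14. Syt6, Syt17 and Rims1 are among the 35, so that share too is a description. With limma on log2(TPM + 1), a test on length-scaled values, fewer members were called: 11 between beta and alpha, 5 of them higher and 6 lower in beta, 17 between beta and delta and 12 between alpha and delta. Without both beta replicate 2 and delta replicate 3, the counts were 19, 27 and 19. Shares over all genes are given for the main fit alone, so these drops cannot be read as particular to the members.

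**Figure D1:**
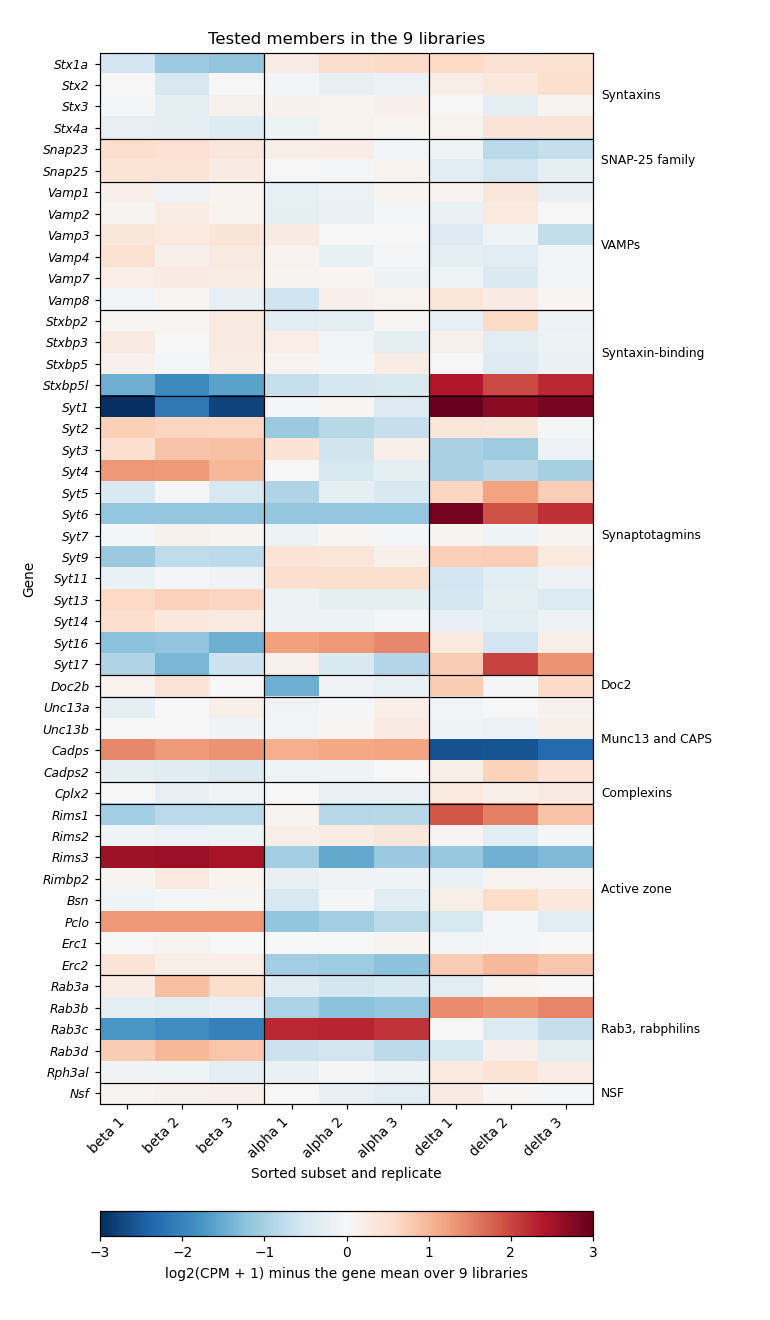
Heat map of the 49 tested members (rows, grouped by family) in the 9 libraries (columns, by subset and replicate), coloured by log2(CPM + 1) minus the mean of the gene over all libraries, with colours ending at -3 and 3. Cadps is dark blue in the 3 delta libraries alone, Rims3 is dark red in the 3 beta libraries, Rab3c in the 3 alpha libraries, and Stxbp5l and Syt1 in the 3 delta libraries, while Erc1, Syt7, Unc13a and Unc13b are near white throughout.

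The upstream sequences of 4 members that lay at the ends of this range are shown for reference: Cadps, lowest in delta, Stxbp5l, highest in delta, Rims3, highest in beta, and Rab3c, highest in alpha. Each is the 250 bases before the transcription start in RefSeq on GRCm38.p6, written 5′ to 3′ on the strand of the gene. Capitals mark GC boxes (GGGCGG) and the form CAGNTG of the E-box, called E-box here, searched on both strands. Other forms of the E-box were not searched. Cadps is on the minus strand at chr14:12823080-12823329, Stxbp5l on the minus strand at chr16:37384959-37385208, Rims3 on the plus strand at chr4:120854549-120854798 and Rab3c on the minus strand at chr13:110280207-110280456. The Rab3c window lies before the RefSeq start but inside the gene span given for Rab3c below, which comes from another annotation.
Cadps: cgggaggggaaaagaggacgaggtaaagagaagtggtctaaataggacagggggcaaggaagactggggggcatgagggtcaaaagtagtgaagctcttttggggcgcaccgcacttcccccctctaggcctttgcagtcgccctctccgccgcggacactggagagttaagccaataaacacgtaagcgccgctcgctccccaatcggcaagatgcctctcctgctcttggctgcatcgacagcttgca
Stxbp5l: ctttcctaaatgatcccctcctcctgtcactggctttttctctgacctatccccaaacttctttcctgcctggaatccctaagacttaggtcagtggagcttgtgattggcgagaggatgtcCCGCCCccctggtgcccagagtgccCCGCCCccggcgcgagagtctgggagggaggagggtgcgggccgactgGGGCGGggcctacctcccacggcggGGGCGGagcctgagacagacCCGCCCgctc
Rims3: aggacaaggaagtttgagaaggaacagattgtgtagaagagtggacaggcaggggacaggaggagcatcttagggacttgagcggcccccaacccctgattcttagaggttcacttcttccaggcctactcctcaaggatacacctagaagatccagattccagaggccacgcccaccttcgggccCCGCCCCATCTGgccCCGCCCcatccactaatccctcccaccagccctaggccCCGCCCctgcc
Rab3c: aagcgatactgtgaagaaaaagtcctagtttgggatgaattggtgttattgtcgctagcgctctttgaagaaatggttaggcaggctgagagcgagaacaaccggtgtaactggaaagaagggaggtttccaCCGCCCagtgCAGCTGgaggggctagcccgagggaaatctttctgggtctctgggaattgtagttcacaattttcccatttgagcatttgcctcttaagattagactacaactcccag
Cadps had neither motif in this window, Stxbp5l had 5 GC boxes, Rims3 had 3 GC boxes and 1 E-box, which abut in CCGCCCCATCTG, and Rab3c had 1 of each. A GC box was found in 65.4% of the 52 windows of the 43 members in the RefSeq table, 57.2% of 12622 windows of tested protein-coding genes and 32.7% of all 32851 windows. For the E-box the shares were 55.8%, 38.5% and 44.8%. These matches describe the letters in the windows, and binding was not measured.

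Among the plasma membrane SNAREs, Stx1a was lower in beta, and Snap25 and Snap23 were lower in delta. Stx1a (ENSMUSG00000007207, chromosome 5, 135023482 to 135051100, plus strand), the syntaxin of fast synaptic release, had 4.37, 2.74 and 2.48 CPM in beta, 8.32, 10.5 and 10.9 CPM in alpha and 11.1, 9.68 and 9.89 CPM in delta. All 3 beta libraries lay below the other 6, and alpha and delta overlapped. Stx1a in beta was 3.04-fold lower than in alpha (log2 ratio -1.60, SE 0.31, adjusted p = 0.000698) and 3.15-fold lower than in delta (log2 ratio -1.65, SE 0.31, adjusted p = 0.000463), and alpha and delta were not parted by the test (log2 ratio -0.05, SE 0.28, adjusted p = 0.925). TPM is RSEM's abundance scaled for transcript length, and means of it are used to compare genes. Stx3, a syntaxin of granule and apical membranes, was the most abundant of the 4 per length in beta and alpha, at 13.3 ± 4.84 TPM in beta, 16.2 ± 3.08 in alpha and 10.9 ± 2.53 in delta (SD, n = 3). It had 59.7, 49.9 and 67.01 CPM in beta, 67.6, 66.5 and 67.9 CPM in alpha and 61.5, 50.5 and 65.02 CPM in delta. The alpha libraries lay above the delta libraries and the other pairs of subsets overlapped, but no comparison passed (adjusted p = 0.33 between beta and alpha, 0.988 between beta and delta, 0.337 between alpha and delta). Stx4a, which acts in fusion at the plasma membrane of many cells, was lower in beta than in delta (log2 ratio -0.63, SE 0.17, adjusted p = 0.00965), a call that ended without beta replicate 3 (adjusted p = 0.0522) and on log2(TPM + 1). Stx2 was called in no comparison.

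Snap25 (ENSMUSG00000027273, chromosome 2, 136713453 to 136782428, plus strand), the SNAP-25 protein of neurons and endocrine cells, had 298, 296 and 265 CPM in beta, 226, 214 and 241 CPM in alpha and 179.7, 152 and 180.3 CPM in delta. The 3 subsets did not overlap, with beta highest and delta lowest. Snap25 in beta was 1.68-fold higher than in delta (log2 ratio 0.75, SE 0.097, adjusted p = 1.10e-05) and in alpha 1.33-fold higher than in delta (log2 ratio 0.41, SE 0.096, adjusted p = 0.00409). The difference between beta and alpha was smaller (log2 ratio 0.33, SE 0.096, adjusted p = 0.0148) and ended without beta replicate 1 (adjusted p = 0.067), beta replicate 2 (0.082), alpha replicate 1 (0.0544) or alpha replicate 2 (0.0863), and under upper-quartile scaling (0.0675). Snap23, its widely expressed relative, averaged 51.9 ± 2.89 CPM in beta, 41.3 ± 4.74 in alpha and 26.5 ± 7.51 in delta (SD, n = 3 each). It was higher in beta than in delta (log2 ratio 0.97, SE 0.18, adjusted p = 0.000357) and in alpha than in delta (log2 ratio 0.64, SE 0.18, adjusted p = 0.0125), the second a call that ended without alpha replicate 2 (adjusted p = 0.0547) or delta replicate 3 (0.051). On log2(TPM + 1) with limma, calls were lost for Snap25 between beta and alpha and Snap23 and Snap25 between alpha and delta.

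Of the 6 VAMPs, 3 were called in at least 1 comparison, near the 44% of all genes tested. Of the 6 tested, 3 were higher in beta than in delta and none lower, against 15.4% and 15.3% of all genes. Vamp2, the main granule SNARE of insulin release, was the most abundant VAMP per length, at 37.9 TPM in beta, 32.8 in alpha and 30.1 in delta. It had 109, 120.1 and 110.1 CPM in beta, 84.9, 89.3 and 97.6 CPM in alpha and 88.4, 126 and 101 CPM in delta. The beta and alpha libraries did not overlap, but the difference missed the threshold (log2 ratio 0.32, SE 0.12, adjusted p = 0.0682). It passed without delta replicate 1 (adjusted p = 0.0251) or delta replicate 2 (0.0233), as did alpha against delta without delta replicate 1 (0.0483). Vamp3, the VAMP of recycling endosomes, Vamp4, of the trans-Golgi network, and Vamp7, of late endosomes and lysosomes, were higher in beta than in delta by 1.68-fold, 1.46-fold and 1.36-fold (adjusted p = 0.000572, 0.00187 and 0.00856). Vamp3 was also higher in alpha than in delta (log2 ratio 0.49, SE 0.14, adjusted p = 0.0184), a call that ended without alpha replicate 1 (adjusted p = 0.0875) or delta replicate 3 (0.0896). Vamp4 was also higher in beta than in alpha (log2 ratio 0.35, SE 0.12, adjusted p = 0.0374), a call that ended under upper-quartile scaling and without any of 4 libraries. The adjusted p was 0.19 without beta replicate 1, 0.0835 without beta replicate 3, 0.182 without alpha replicate 2 and 0.0897 without alpha replicate 3. Vamp1 and Vamp8 were called in no comparison. On log2(TPM + 1), calls were lost for Vamp4 between beta and alpha, Vamp4 and Vamp7 between beta and delta and Vamp3 between alpha and delta.

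Stxbp5l (ENSMUSG00000022829, chromosome 16, 37114942 to 37384962, minus strand), which encodes tomosyn-2, an inhibitor that binds syntaxin and SNAP-25 and restrains insulin release in mouse islets, was the member with the highest TPM in delta, while Stxbp5 was first of the syntaxin-binding genes by TPM in beta and alpha. Stxbp5l had 38.7, 28.1 and 35.2 CPM in beta, 66.99, 75.4 and 77.7 CPM in alpha and 574, 434 and 528 CPM in delta. The 3 subsets were fully separated, with delta far above alpha and alpha above beta. Stxbp5l in beta was 15.02-fold lower than in delta (log2 ratio -3.91, SE 0.14, adjusted p = 1.16e-12), and in alpha 6.98-fold lower than in delta (log2 ratio -2.80, SE 0.13, adjusted p = 5.56e-11). The difference between beta and alpha was 2.15-fold, with beta lower (log2 ratio -1.11, SE 0.13, adjusted p = 3.92e-06). Its mean level in alpha was 14.3% of that in delta, where Sst in alpha was at 0.219%. Its paralog Stxbp5, tomosyn-1, had 127, 113 and 136 CPM in beta, 122, 113 and 135 CPM in alpha and 115, 88.6 and 100.4 CPM in delta and was called in no comparison. Without delta replicate 1, Stxbp5 passed as higher in beta than in delta (adjusted p = 0.0104) and in alpha than in delta (0.0175). Stxbp2 and Stxbp3, Munc18 proteins that chaperone syntaxins, were called in no comparison, though Stxbp3 passed between beta and delta without delta replicate 1 (adjusted p = 0.0424).

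**Figure D2:**
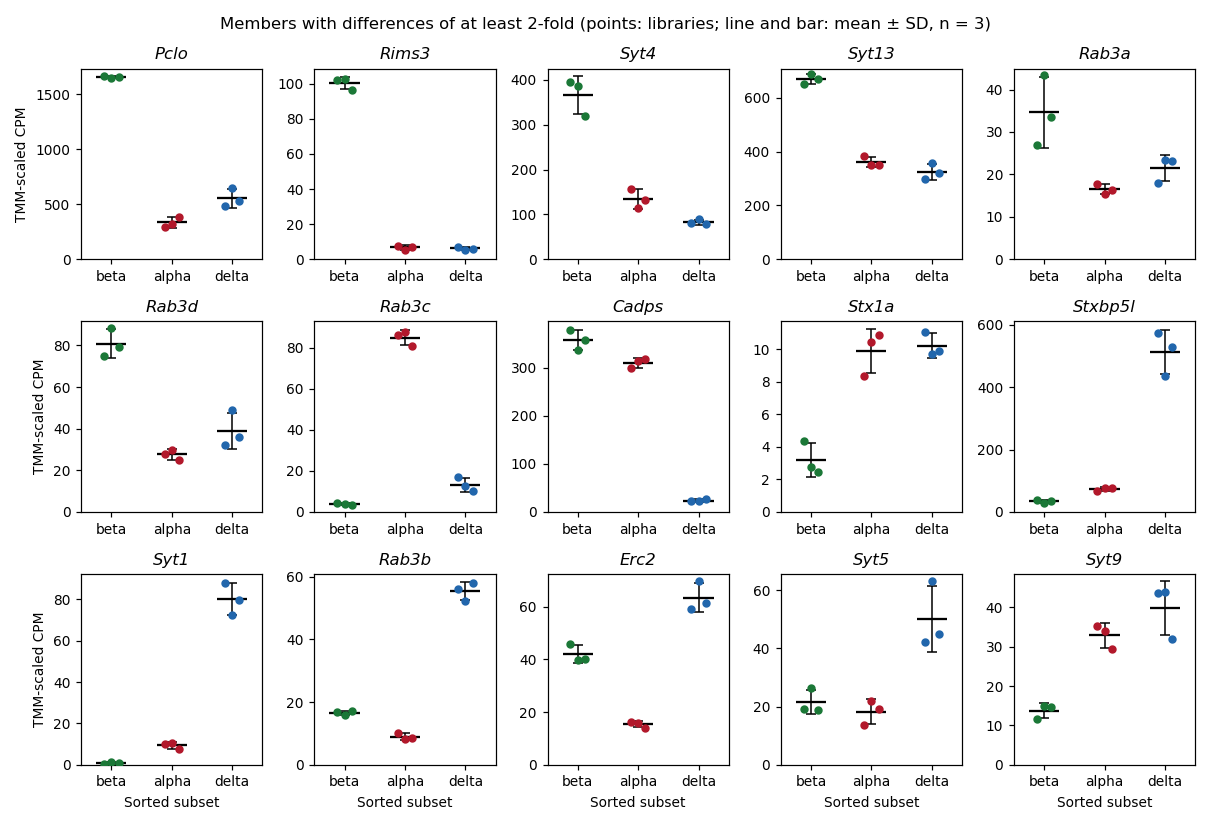
TMM-scaled CPM (vertical axes from 0) of 15 members in beta, alpha and delta libraries; points are libraries, the horizontal line is the mean and the bar the SD of 3. Pclo, Rims3, Syt4, Syt13, Rab3a and Rab3d stand highest in beta, Rab3c in alpha, and Stxbp5l, Syt1, Rab3b, Erc2 and Syt5 in delta, while Cadps is low in delta and Stx1a and Syt9 are low in beta.

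Of 13 synaptotagmins tested, 4 were higher and 4 lower in beta than in alpha, against 14.8% and 11.9% of all genes. Between beta and delta, 4 were higher and 6 lower in beta, against 15.4% and 15.3% of all genes. Between alpha and delta, 3 were higher and 5 lower in alpha, against 11% and 13.3% of all genes. The counts lower than delta include Syt6 and Syt17, which passed the count filter only through the delta libraries. Syt13 (ENSMUSG00000027220, chromosome 2, 92915098 to 92956058, plus strand), a synaptotagmin that does not bind calcium, had the highest TPM of the family in every subset, at 95.8 ± 20.4 in beta, 54.05 ± 8.83 in alpha and 41.6 ± 9.72 in delta (SD, n = 3 each). In CPM it had 651, 689 and 669.7 CPM in beta, 384, 350.1 and 352 CPM in alpha and 298, 356 and 321 CPM in delta. All beta libraries lay above the other 6. Syt13 in beta was 1.85-fold higher than in alpha (log2 ratio 0.89, SE 0.088, adjusted p = 5.50e-07) and 2.06-fold higher than in delta (log2 ratio 1.04, SE 0.088, adjusted p = 6.93e-08), and alpha and delta were not parted by the test (log2 ratio 0.15, SE 0.088, adjusted p = 0.232). Syt4 (ENSMUSG00000024261, chromosome 18, 31437808 to 31447406, minus strand), which in mouse beta cells rises with maturation and lowers the calcium sensitivity of insulin release, had 395, 387 and 319 CPM in beta, 157, 114 and 131 CPM in alpha and 80.03, 88.6 and 79.02 CPM in delta. The 3 subsets were separated in the order beta, alpha, delta. Syt4 in beta was 2.73-fold higher than in alpha (log2 ratio 1.45, SE 0.12, adjusted p = 5.47e-08) and 4.45-fold higher than in delta (log2 ratio 2.15, SE 0.12, adjusted p = 4.52e-10), and in alpha it was 1.63-fold higher than in delta (log2 ratio 0.70, SE 0.12, adjusted p = 0.000277). Syt14, which also lacks calcium binding, was raised in beta over alpha (log2 ratio 0.50, SE 0.093, adjusted p = 0.000581) and over delta (log2 ratio 0.61, SE 0.094, adjusted p = 6.39e-05). Syt7, a high-affinity calcium sensor of insulin and glucagon granules, had 194, 217 and 209 CPM in beta, 177, 202 and 189.8 CPM in alpha and 209.8, 181 and 208 CPM in delta. All subsets overlapped. Its log2 fold changes were 0.12 for beta over alpha, 0.047 for beta over delta and -0.074 for alpha over delta, each with SE 0.095, and none passed the test.

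Of the calcium-binding synaptotagmins, Syt1 and Syt9 were lower in beta than in both other subsets and Syt5 was higher in delta. Syt1 (ENSMUSG00000035864, chromosome 10, 108497650 to 109010982, minus strand), the fast calcium sensor of synapses, had 0.257, 1.54 and 0.660 CPM in beta, 9.91, 10.6 and 7.62 CPM in alpha and 87.8, 72.6 and 79.9 CPM in delta. It was near the limit of detection in beta and highest in delta, with alpha between them and no overlap. Syt1 in beta was lower than in delta (log2 ratio -6.67, SE 0.31, adjusted p = 3.89e-11) and than in alpha (log2 ratio -3.58, SE 0.34, adjusted p = 3.80e-07), and in alpha it was 8.51-fold lower than in delta (log2 ratio -3.09, SE 0.22, adjusted p = 1.22e-08). The values in beta rest on few counts: without beta replicate 2 the log2 fold changes were -7.48 against delta and -4.39 against alpha. Syt5 (ENSMUSG00000004961, chromosome 7, 4539765 to 4547541, minus strand), of dense-core vesicles, had 19.3, 26.2 and 18.98 CPM in beta, 13.8, 21.9 and 19.2 CPM in alpha and 42.2, 63.1 and 45.1 CPM in delta. The delta libraries lay above all others. Syt5 in beta was 2.33-fold lower than in delta (log2 ratio -1.22, SE 0.21, adjusted p = 0.00018) and in alpha 2.74-fold lower than in delta (log2 ratio -1.45, SE 0.21, adjusted p = 4.21e-05), with beta and alpha not parted by the test (adjusted p = 0.493). Syt9 (ENSMUSG00000062542, chromosome 7, 107370728 to 107548656, plus strand), a calcium sensor of insulin granules in rat beta cell lines, had 11.6, 14.9 and 14.7 CPM in beta, 35.3, 33.9 and 29.3 CPM in alpha and 43.6, 44.0 and 31.99 CPM in delta. Beta was below both others without overlap. Syt9 in beta was 2.40-fold lower than in alpha (log2 ratio -1.27, SE 0.18, adjusted p = 3.59e-05) and 2.91-fold lower than in delta (log2 ratio -1.54, SE 0.18, adjusted p = 3.42e-06). Syt11, a synaptotagmin without calcium binding that acts in endocytosis, was highest in alpha, at 44.04 ± 2.35 CPM in beta, 67.4 ± 0.276 in alpha and 37.9 ± 5.66 in delta (log2 ratio -0.61, SE 0.13, adjusted p = 0.00166 for beta over alpha and 0.83, SE 0.13, adjusted p = 0.000121 for alpha over delta).

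The remaining synaptotagmins stayed under 5 TPM in every subset. Syt6, which passed the count filter only through delta, had no counts in the 6 beta and alpha libraries and 15.3, 7.41 and 9.12 CPM in the delta libraries, at least 70.1-fold higher in delta than in beta and at least 84.8-fold higher than in alpha, taking the 0 of each subset as 3 counts over its libraries. Syt16 had 2.31, 2.40 and 1.82 CPM in beta, 17.3, 18.1 and 19.9 CPM in alpha and 8.47, 4.23 and 7.71 CPM in delta, with alpha highest and no overlap (log2 ratio -3.07, SE 0.32, adjusted p = 8.99e-07 for beta over alpha, -1.64, SE 0.32, adjusted p = 0.000769 for beta over delta and 1.43, SE 0.28, adjusted p = 0.000941 for alpha over delta). Syt17, which entered the test only through its delta libraries, had 0.385, 0 and 0.660 CPM in beta, 1.82, 0.881 and 0.423 CPM in alpha and 3.41, 9.53 and 5.65 CPM in delta. Its fitted log2 fold changes against delta are given as a description: they were -4.06 for beta over delta, or -4.74 without beta replicate 3, and -2.52 for alpha over delta (adjusted p = 0.0103), a call that ended without alpha replicate 3 (adjusted p = 0.0506) or delta replicate 2 (0.0623) and whose log2 fold change was -3.18 without alpha replicate 1. Syt3 was higher in beta than in delta (log2 ratio 1.86, SE 0.49, adjusted p = 0.00743), and it passed between alpha and delta without delta replicate 3 (log2 fold change 1.62, adjusted p = 0.0395). Syt2, a fast calcium sensor like Syt1, was called lower in alpha than in beta and in delta on counts, with log2 fold changes of 1.68 for beta over alpha and -1.23 for alpha over delta. On log2(TPM + 1) the difference between beta and alpha was 0.43 and no longer called, and that between alpha and delta turned to 0.16. Among all synaptotagmins, calls were lost on log2(TPM + 1) for Syt2, Syt11, Syt13 and Syt14 between beta and alpha, Syt3, Syt14 and Syt16 between beta and delta and Syt17 between alpha and delta. Doc2b, a soluble calcium sensor that promotes insulin release in mice, was at 2.31, 3.08 and 2.15 CPM in beta, 0.114, 1.89 and 1.69 CPM in alpha and 4.23, 1.97 and 3.60 CPM in delta. Its beta and delta libraries lay above the alpha libraries, but no comparison was called.

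Of the priming factors, Cadps was the one with a large difference, and its level was low in delta. Cadps (ENSMUSG00000054423, chromosome 14, 12372563 to 12823079, minus strand), which encodes CAPS1, a priming factor of dense-core granules needed for insulin secretion in mice, had 378, 337 and 357 CPM in beta, 299, 314 and 318 CPM in alpha and 21.99, 22.4 and 26.98 CPM in delta. All delta libraries lay far below those of beta and alpha. Cadps in beta was 15.0-fold higher than in delta (log2 ratio 3.91, SE 0.11, adjusted p = 7.72e-14) and in alpha 13.02-fold higher than in delta (log2 ratio 3.70, SE 0.11, adjusted p = 4.95e-13). Beta and alpha did not overlap but were not parted by the test (log2 ratio 0.20, SE 0.093, adjusted p = 0.127). The mean delta level was 6.65% of the beta level and 7.66% of the alpha level, where Ins2 in delta stood at 0.737% of its beta level and Gcg in delta at 4.90% of its alpha level. How much of the Cadps in delta libraries came from beta or alpha cells was not tested. Its paralog Cadps2, which encodes CAPS2, had 22.7, 21.4 and 20.5 CPM in beta, 25.3, 25.6 and 28.2 CPM in alpha and 31.8, 45.97 and 37.9 CPM in delta. Delta was the highest of the subsets without overlap, 1.79-fold above beta (log2 ratio -0.84, SE 0.17, adjusted p = 0.000763 for beta over delta). Alpha was also below delta (log2 ratio -0.55, SE 0.16, adjusted p = 0.0196), a call that ended without alpha replicate 1 (adjusted p = 0.0798), alpha replicate 2 (0.072) or delta replicate 2 (0.0883), and both Cadps2 calls ended on log2(TPM + 1).

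Neither of the tested Munc13 genes was called. Unc13a, the Munc13 of most synapses, had 83.1, 99.9 and 114 CPM in beta, 94.3, 99.2 and 116 CPM in alpha and 94.8, 102 and 110.4 CPM in delta. Unc13b, its paralog, had 151, 148 and 137 CPM in beta, 141, 153 and 177 CPM in alpha and 135, 132 and 167 CPM in delta. All 3 subsets overlapped for both genes, and the log2 fold changes lay between -0.11 and 0.12, both of them of Unc13b. Cplx2, the complexin of endocrine cells, had 60.2 ± 15.3 TPM in beta, 61.6 ± 9.62 in alpha and 68.1 ± 10.5 in delta. In CPM it had 597, 509.8 and 562 CPM in beta, 597, 522 and 527 CPM in alpha and 739.8, 682 and 721 CPM in delta. The delta libraries were above all others, by 1.28-fold over beta (log2 ratio -0.36, SE 0.089, adjusted p = 0.00471 for beta over delta) and 1.30-fold over alpha (log2 ratio -0.38, SE 0.089, adjusted p = 0.00419 for alpha over delta). The call between beta and delta ended without both beta replicate 2 and delta replicate 3 (adjusted p = 0.0856). Both Cplx2 calls ended on log2(TPM + 1), and beta over delta turned to 0.016 where TPM was rescaled after 7S and ribosomal RNA genes were left out, a setting chosen after the values were seen. Nsf, whose product recycles SNAREs, had 78.8, 81.4 and 83.2 CPM in beta, 74.5, 62.8 and 59.5 CPM in alpha and 88.9, 76.2 and 73.5 CPM in delta and was called in no comparison, although its beta libraries lay above its alpha libraries. It passed between beta and alpha without alpha replicate 1 (adjusted p = 0.0376) or delta replicate 1 (0.0376).

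**Figure D3:**
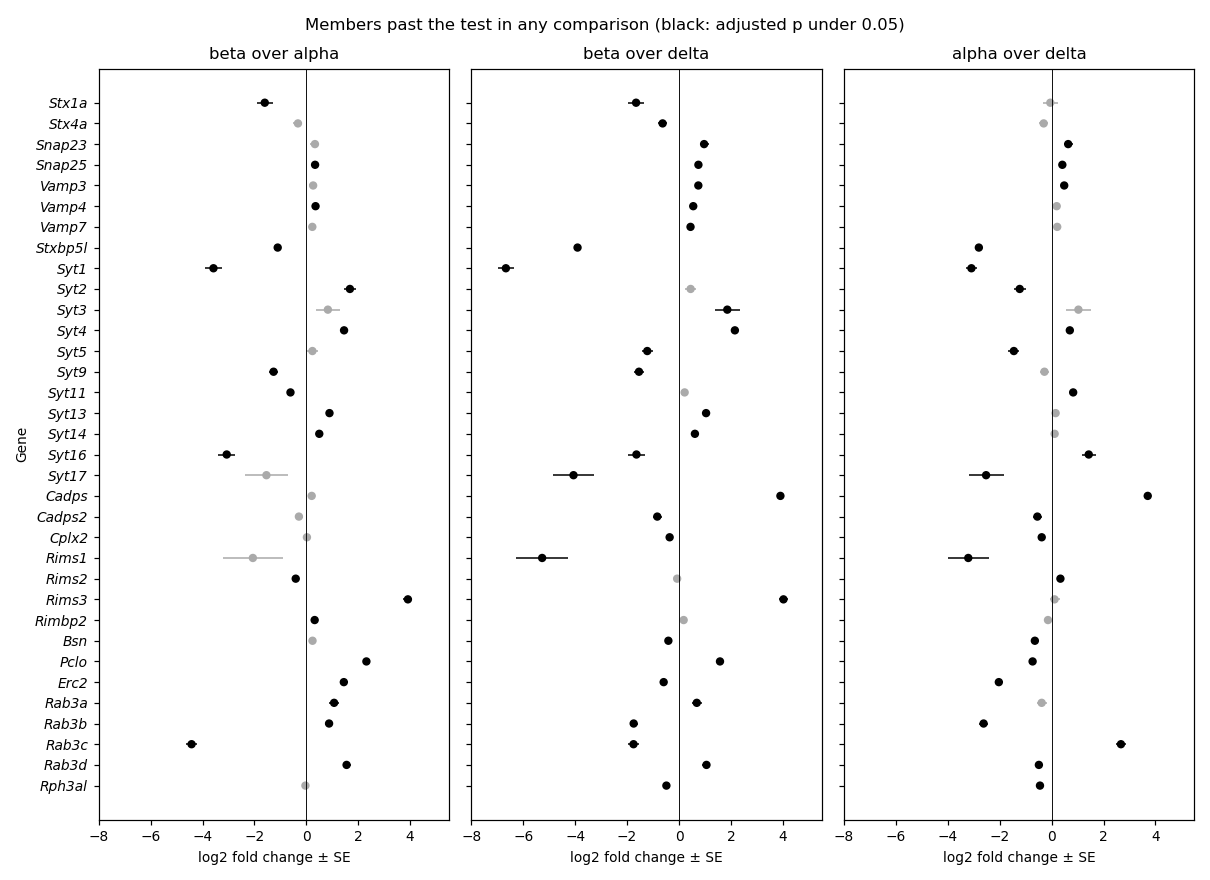
Log2 fold changes (horizontal axes, points, with SE as bars) of the members called in at least 1 comparison, for beta over alpha, beta over delta and alpha over delta; black marks an adjusted p under 0.05 and grey a difference not called. Syt6 is left out because it had no counts in beta or alpha. Cadps stands near 0 for beta over alpha and near 4 in both panels against delta, Rims3 stands near 4 in both panels with beta, and Rab3c points left with beta and right for alpha over delta.

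Active zone genes separated beta from the other subsets through Rims3 and Pclo. Rims3 (ENSMUSG00000032890, chromosome 4, 120854816 to 120896579, plus strand), which encodes RIM3, a short RIM protein, had 102, 103 and 96.7 CPM in beta, 7.75, 5.04 and 7.20 CPM in alpha and 6.97, 5.44 and 6.04 CPM in delta. All beta libraries lay far above the other 6, and alpha and delta overlapped. Rims3 in beta was 15.04-fold higher than in alpha (log2 ratio 3.91, SE 0.17, adjusted p = 3.02e-11) and 16.3-fold higher than in delta (log2 ratio 4.02, SE 0.18, adjusted p = 1.99e-11), with alpha and delta not parted by the test (adjusted p = 0.727). The mean alpha level was 6.63% of the beta level, where Ins2 in alpha stood at 8.96%, and the mean delta level was 6.12%, where Ins2 in delta stood at 0.737%. How much of the Rims3 in alpha and delta libraries came from beta cells was not tested. Pclo (ENSMUSG00000061601, chromosome 5, 14514918 to 14863459, plus strand), which encodes piccolo, a giant scaffold that in mouse beta cells links calcium channels and cAMP signalling to granules, had 1662, 1649.6 and 1660.1 CPM in beta, 293, 324 and 385 CPM in alpha and 484, 651 and 529.8 CPM in delta. The beta libraries lay close together, and the subsets were fully separated with alpha lowest. Pclo in beta was 4.96-fold higher than in alpha (log2 ratio 2.31, SE 0.12, adjusted p = 1.51e-10) and 2.99-fold higher than in delta (log2 ratio 1.58, SE 0.11, adjusted p = 1.06e-08), and in alpha it was 1.66-fold lower than in delta (log2 ratio -0.73, SE 0.11, adjusted p = 0.000103).

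Other scaffold genes followed different orders. Rims2 (ENSMUSG00000037386, chromosome 15, 39198261 to 39684372, plus strand), whose product RIM2 binds Rab3 and is needed for glucose-stimulated insulin release in mice, had the highest TPM of all members in alpha, at 52.5 ± 12.5 TPM in beta, 70.7 ± 23.6 in alpha and 39.4 ± 8.03 in delta. In CPM it had 189, 183 and 188 CPM in beta, 236, 245 and 263 CPM in alpha and 219, 167 and 202 CPM in delta. Alpha was above both others without overlap, 1.33-fold above beta (log2 ratio -0.41, SE 0.10, adjusted p = 0.0052 for beta over alpha) and 1.26-fold above delta (log2 ratio 0.34, SE 0.10, adjusted p = 0.0203 for alpha over delta). The second call ended without alpha replicate 3 (adjusted p = 0.0866) or delta replicate 2 (0.0783), and both ended on log2(TPM + 1). Erc2 (ENSMUSG00000040640, chromosome 14, 27622428 to 28478537, plus strand), which encodes ELKS2, had 45.97, 39.9 and 40.3 CPM in beta, 16.3, 15.99 and 14.1 CPM in alpha and 59.3, 69.6 and 61.5 CPM in delta. The order was delta, beta, alpha with no overlap between subsets. Erc2 in beta was 2.72-fold higher than in alpha (log2 ratio 1.44, SE 0.14, adjusted p = 5.29e-07) and 1.51-fold lower than in delta (log2 ratio -0.59, SE 0.13, adjusted p = 0.00243), and in alpha it was 4.09-fold lower than in delta (log2 ratio -2.03, SE 0.14, adjusted p = 9.43e-09). Its paralog Erc1, ELKS1, had 69.9, 74.9 and 69.8 CPM in beta, 70.4, 70.8 and 75.5 CPM in alpha and 67.5, 69.7 and 70.03 CPM in delta and was called in no comparison.

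Bsn, which encodes bassoon, was highest in delta, at 69.3 ± 3.84 CPM in beta, 58.9 ± 9.08 in alpha and 92.05 ± 11.9 in delta. Its call between alpha and delta (log2 ratio -0.65, SE 0.13, adjusted p = 0.00131) held in every fit without 1 library, while that between beta and delta (log2 ratio -0.41, SE 0.13, adjusted p = 0.0237) ended without beta replicate 1 (adjusted p = 0.103), beta replicate 2 (0.0647) or delta replicate 2 (0.1). Rimbp2, which links RIM proteins to calcium channels, was raised in beta over alpha (log2 ratio 0.32, SE 0.099, adjusted p = 0.0233), a call that ended without beta replicate 2 (adjusted p = 0.155), alpha replicate 1 (0.101) or alpha replicate 2 (0.0568), and under upper-quartile scaling (0.098). Rims1, the main RIM of synapses, was highest in delta libraries, with 0, 0.171 and 0.165 CPM in beta, 1.14, 0.126 and 0.141 CPM in alpha and 6.42, 4.84 and 2.70 CPM in delta. It had 2 counts over the beta libraries and 100 over the delta libraries, a ratio of delta to beta of 45.3 with a 95% counting interval of 12.2 to 379. Rims1 also entered the test only through its delta libraries, so its values are given as a description. The fitted log2 fold changes were -5.27 for beta over delta, or -4.64 without beta replicate 1, and -3.21 for alpha over delta, or -4.94 without alpha replicate 1. The Schwann cell markers, which were also highest in delta, summed to 15.2 to 29.8 CPM there and those of autonomic neurons to 0 to 0.546 CPM. The part of such cells in the delta levels of Rims1, Syt1 and Stxbp5l was not tested. On log2(TPM + 1), calls of scaffold genes were lost for Rims2 and Rimbp2 between beta and alpha, Bsn and Erc2 between beta and delta and Rims2, Bsn and Pclo between alpha and delta.

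The 4 Rab3 genes, which encode small GTPases of the granule surface, each had their own order. Rab3c (ENSMUSG00000021700, chromosome 13, 110054187 to 110280996, minus strand) had 4.37, 3.94 and 3.47 CPM in beta, 86.4, 87.9 and 80.99 CPM in alpha and 17.1, 12.7 and 10.3 CPM in delta. Alpha was far above both others, and delta was above beta, with no overlap. Rab3c in beta was 21.5-fold lower than in alpha (log2 ratio -4.42, SE 0.20, adjusted p = 4.45e-11) and 3.37-fold lower than in delta (log2 ratio -1.75, SE 0.21, adjusted p = 5.05e-06), and in alpha it was 6.37-fold higher than in delta (log2 ratio 2.67, SE 0.18, adjusted p = 4.91e-09). The mean delta level of Rab3c was 15.7% of its alpha level and the beta level 4.61%, where Gcg stood at 4.90% in delta and 0.440% in beta. Rab3b (ENSMUSG00000003411, chromosome 4, 108879063 to 108943324, plus strand) had 16.7, 15.8 and 17.0 CPM in beta, 10.1, 8.18 and 8.61 CPM in alpha and 55.99, 52.2 and 57.9 CPM in delta. Delta was highest and alpha lowest, again with no overlap. Rab3b in beta was 1.83-fold higher than in alpha (log2 ratio 0.87, SE 0.17, adjusted p = 0.000658) and 3.36-fold lower than in delta (log2 ratio -1.75, SE 0.16, adjusted p = 1.39e-07), and in alpha it was 6.15-fold lower than in delta (log2 ratio -2.62, SE 0.16, adjusted p = 2.35e-09).

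Rab3a and Rab3d were highest in beta. Rab3a (ENSMUSG00000031840, chromosome 8, 70754679 to 70758677, plus strand), the main Rab3 of synapses, which supports insulin secretion in mice, had 26.8, 43.5 and 33.5 CPM in beta, 17.7, 15.4 and 16.4 CPM in alpha and 18.03, 23.3 and 23.1 CPM in delta. The beta libraries lay above all others but spread from 26.8 to 43.5 CPM. Rab3a in beta was 2.10-fold higher than in alpha (log2 ratio 1.07, SE 0.19, adjusted p = 0.000432) and 1.61-fold higher than in delta (log2 ratio 0.68, SE 0.19, adjusted p = 0.0112), where the second call ended without beta replicate 2 (log2 fold change 0.48, adjusted p = 0.109), the library with the large share of ribosomal RNA. Rab3d (ENSMUSG00000019066, chromosome 9, 21907491 to 21918192, minus strand), the Rab3 of exocrine and other secretory granules, had 74.9, 88.4 and 79.4 CPM in beta, 28.03, 29.8 and 24.97 CPM in alpha and 31.96, 48.8 and 35.8 CPM in delta. Beta was above both others without overlap. Rab3d in beta was 2.92-fold higher than in alpha (log2 ratio 1.55, SE 0.16, adjusted p = 6.97e-07) and 2.08-fold higher than in delta (log2 ratio 1.06, SE 0.15, adjusted p = 3.82e-05). Alpha was below delta (log2 ratio -0.49, SE 0.16, adjusted p = 0.0301), a call that ended without alpha replicate 1 (adjusted p = 0.0801), alpha replicate 2 (0.0506), alpha replicate 3 (0.126) or delta replicate 2 (0.156). The markers of acinar cells, which use Rab3d, summed to 186 to 2349 CPM in the delta libraries, with the highest sum in delta replicate 3. The part of such cells in the delta levels of Rab3d was not tested. Rph3al (ENSMUSG00000020847, chromosome 11, 75830999 to 75938429, minus strand), which encodes NOC2, a Rab3 effector of endocrine granules, had 88.7, 87.6 and 79.5 CPM in beta, 83.4, 93.4 and 85.9 CPM in alpha and 118, 128 and 113 CPM in delta. Delta was 1.40-fold above beta (log2 ratio -0.49, SE 0.10, adjusted p = 0.00142 for beta over delta) and 1.36-fold above alpha (log2 ratio -0.45, SE 0.10, adjusted p = 0.00355 for alpha over delta). On log2(TPM + 1), calls were lost for Rab3a and Rab3b between beta and alpha, Rab3a, Rab3c, Rab3d and Rph3al between beta and delta and Rab3d and Rph3al between alpha and delta.

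Shares of each member in the summed TPM of its family do not depend on library scaling, but they do depend on the length scale. With 3 against 3 libraries an exact two-sided permutation test cannot give a p under 0.1, and each difference said here to be without overlap had that smallest p of 0.1. Among Munc13 and CAPS genes, Cadps held 65.2% ± 1.36 in beta, 59.4% ± 3.25 in alpha and 9.86% ± 2.06 in delta (SD, n = 3 each), and the delta libraries did not overlap the others. Unc13b took the first place in delta, with 41.3% ± 1.01, against 17.3% ± 0.329 in beta and 20.4% ± 0.667 in alpha. Among syntaxin-binding genes, Stxbp5l held 11.4% ± 1.45 in beta, 23.5% ± 1.65 in alpha and 64.6% ± 9.56 in delta, with no overlap between any subsets. Among active zone genes, Rims2 was first in every subset on TPM, with 30.3% ± 1.04 in beta, 53.2% ± 2.17 in alpha and 38.2% ± 3.14 in delta. On summed CPM, which is not scaled for length, it held 7.65% in beta, 25.2% in alpha and 15.7% in delta, and Pclo had the highest CPM in every subset. On TPM, Pclo followed Rims2 closely in beta, at 29.1% ± 0.161, but held only 8.10% ± 0.234 in alpha and 14.4% ± 1.70 in delta. Among Rab3 genes and rabphilins, Rab3b held 11.1% ± 0.610 in beta, 7.78% ± 1.11 in alpha and 29.1% ± 3.25 in delta, and Rab3c held 0.556% ± 0.0718, 15.6% ± 2.44 and 1.89% ± 0.857 in the same order of subsets. In the SNAP-25 family, Snap25 held 83.6% ± 0.513 in beta, 83.4% ± 1.53 in alpha and 84.8% ± 0.533 in delta.

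**Figure D4:**
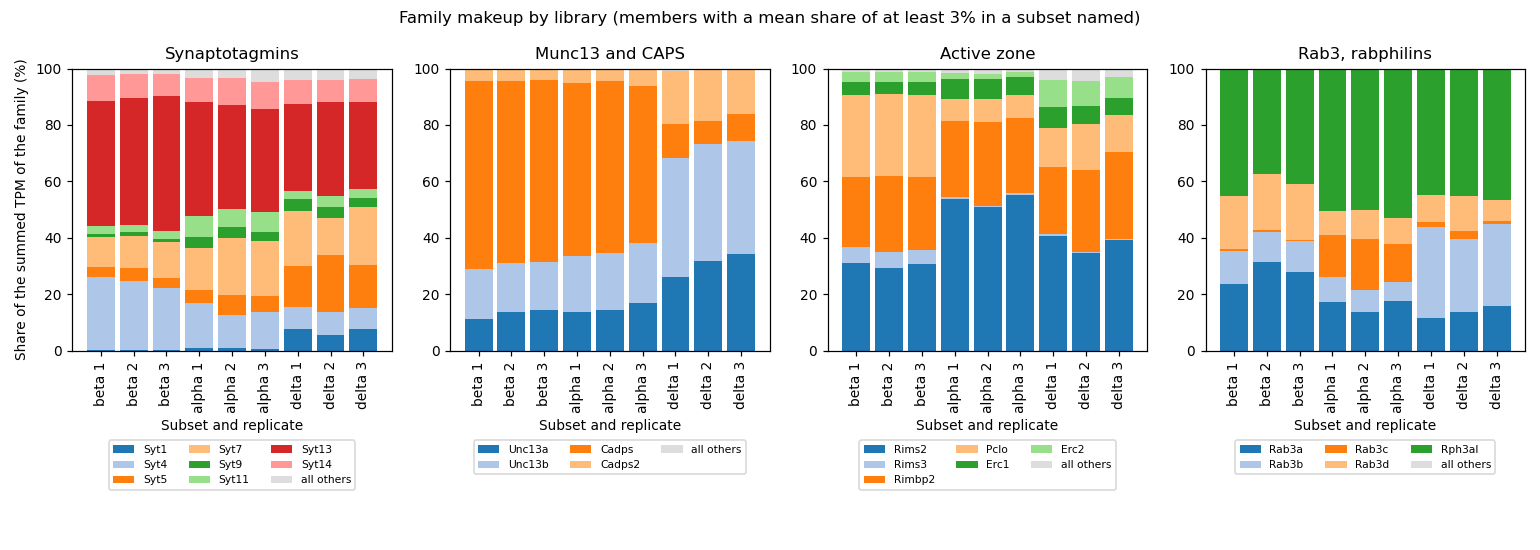
Stacked bars of the share of each member in the summed TPM of its family (vertical axis, percent) in each of the 9 libraries, for synaptotagmins, Munc13 and CAPS genes, active zone genes, and Rab3 genes and rabphilins; members with a mean share of at least 3% in a subset are named. Cadps averages 65.2% of its family in beta, 59.4% in alpha and 9.86% in delta, Syt4 takes its largest share in beta, and Rab3c is visible mainly in the 3 alpha libraries.

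A second readout, the mean transcript length that RSEM gave each gene in each library, gave 1 call among the members. Of 44 members whose length varied, 1 passed limma with Benjamini-Hochberg adjustment in any comparison, against 0.315% of the 11739 genes tested for length. Taken singly, 0.102% of these 11739 genes passed between beta and alpha, 0.204% between beta and delta and 0.23% between alpha and delta. That member was Syt6, whose length in beta and alpha libraries is a default, since it had no counts there, so no isoform difference was read from it. Without delta replicate 3, Syt3 passed as well.

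Of the 58 members, 9 had too few counts for a test: Syt10, Syt12, Doc2a, Unc13c, Unc13d, Cplx1, Cplx3, Rims4 and Rph3a. None of them had more than 18 counts in a library. Syt10 and Cplx1 had no counts in any library, which over 65815603 counts allows a level of up to 0.0456 CPM. Per length, 34 members reached a mean of 5 TPM in beta, 32 in alpha and 34 in delta.

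Other genes of the secretory pathway were taken from lists that hold no members. Their counts stand beside shares over all genes of 26.6% called between beta and alpha, 30.6% between beta and delta and 24.3% between alpha and delta. By direction, 14.8% of all genes were higher and 11.9% lower in beta than in alpha, and 15.4% and 15.3% in beta than in delta. Between alpha and delta, 11% were higher and 13.3% lower in alpha. Of 23 SNAREs and cofactors of the endomembrane system, 6 were higher and 1 lower in beta than in alpha, 10 higher and 1 lower in beta than in delta, and 4 higher and none lower in alpha than in delta. The count between beta and alpha was near the share over all genes and that between alpha and delta under it. The lower gene was Stx16, of the trans-Golgi network, with a log2 fold change of -1.23 for beta over alpha (SE 0.11, adjusted p = 1.32e-07) and -0.85 for beta over delta (SE 0.11, adjusted p = 9.82e-06). Gosr2, a Golgi SNARE, was raised in beta over alpha (log2 ratio 0.72, SE 0.11, adjusted p = 4.99e-05) and over delta (log2 ratio 0.72, SE 0.11, adjusted p = 4.68e-05). Of 9 exocyst subunits, which tether vesicles before fusion, 1 was higher and 3 lower in beta than in alpha, 2 higher and 1 lower in beta than in delta, and 4 higher and none lower in alpha than in delta. The exocyst count between beta and delta was near the share over all genes. Exoc6 was lower in beta than in alpha (log2 ratio -1.33, SE 0.15, adjusted p = 2.98e-06) and than in delta (log2 ratio -1.53, SE 0.15, adjusted p = 5.00e-07). Of 16 tested vesicle membrane genes, 7 were higher and 1 lower in beta than in alpha, 6 higher and 2 lower in beta than in delta, and 2 higher and 6 lower in alpha than in delta. Sv2b, a glycoprotein of secretory vesicles, was the 1 gene of this list lower in beta than in alpha, against the 7 higher. It was highest in alpha, with log2 fold changes of -1.72 for beta over alpha (SE 0.38, adjusted p = 0.00749), 2.38 for beta over delta (SE 0.45, adjusted p = 0.00281) and 4.10 for alpha over delta (SE 0.45, adjusted p = 9.06e-05). These SEs are larger than those of the other genes named here. Of 5 regulators of Rab3, 3 were higher and 1 lower in beta than in alpha, 3 higher and 1 lower in beta than in delta, and 1 higher and none lower in alpha than in delta. Madd, an exchange factor that activates Rab3 proteins, was raised in beta over alpha (log2 ratio 1.27, SE 0.093, adjusted p = 1.32e-08) and over delta (log2 ratio 1.07, SE 0.093, adjusted p = 9.08e-08).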

How the data were processed

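The deposited tables hold RSEM gene estimates of RNA from 9 libraries of sorted islet cells, 3 each of beta, alpha and delta. The submitters' processing notes name STAR 2.5.2b, RSEM, DESeq2 1.22.1 under R 3.5.1 and build GRCm38.p6, with no RSEM version. Per the file headers, the authors' RSEM tables give, for each gene and library, the expected count, TPM and 2 lengths, so reads that match several genes, such as paralogs, were shared between them. The deposited normalised matrix was not used. Replicates were not pooled.

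Expected counts were rounded and tested in R 4.3.3 with edgeR 4.0.16 (filterByExpr, TMM factors, quasi-likelihood test, Benjamini-Hochberg adjustment over the 15896 genes kept) in 1 fit over the 3 subsets, with 6 residual degrees of freedom and a common biological coefficient of variation of 0.212. The script was tested on simulated data. Limma 3.58.1 on log2(TPM + pseudocount) and DESeq2 1.42.0 were alternatives. Totals ran between 5663141 and 9529920 per library, and intervals from counts cover counting error only. Chromosome positions are those of the gene annotation on GRCm38. Members described in full were those past the test with at least a 2-fold difference and a mean of at least 5 TPM in a subset, and the member of each family with the highest mean TPM; other members were named by family. The members and lists were chosen with earlier results of these data known. Replicate numbers gave no pairing by mouse or sort in the labels.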

Additional observations from a re-analysis of the deposited data

How the results depend on the processing

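The counts in this section have no share over all genes beside them, so a change cannot be read as particular to the members. Members called between beta and alpha, beta and delta, and alpha and delta numbered 11, 17 and 12 with limma on log2(TPM + 1). They numbered 11, 18 and 10 with a pseudocount of 0.1 and 9, 12 and 8 with edgeR's test against a log2 fold change of 1. With an effective length offset in edgeR, which changes the length scale but not the test, 17, 29 and 21 were called. With limma, members highest in beta, alpha and delta numbered 3, 2 and 6 on both pseudocounts, and with the test against a log2 fold change of 1 they numbered 3, 1 and 5. With TPM rescaled after 7S and ribosomal RNA genes were left out, a setting chosen after seeing the data, 16, 26 and 13 members were called, and 8, 2 and 6 were highest in beta, alpha and delta. Syt2 for alpha over delta turned to 0.16 on log2(TPM + 1), 0.19 with a pseudocount of 0.1, 0.028 with an effective length offset in edgeR and 0.12 on rescaled TPM, where Cplx2 for beta over delta turned to 0.016. The mean transcript length of Syt2 was 5089 ± 1400 in beta, 3113 ± 1370 in alpha and 6352 ± 913 in delta (SD). This length was not called between alpha and delta with limma (adjusted p = 0.427). The cause of these turns was not tested. Against the TMM fit, the median log2 fold change of the members shifted by -0.093, 0.15 and 0.26 on log2(TPM + 1) and by 0.18, 0.36 and 0.19 on rescaled TPM, in the order of comparisons given first. Without 1 library at a time, 18 to 23, 29 to 33 and 20 to 26 members were called, 7 to 9, 3 to 4 and 9 to 12 were highest in beta, alpha and delta, and 1 to 2 differed in transcript length. With the replicate number as a block, 23, 32 and 25 members were called. The block added Vamp2 and Nsf between beta and alpha, and Stxbp5 between beta and delta and between alpha and delta. Same-numbered libraries correlated at 0.00085 to 0.112 in their deviations from subset means, and libraries of different numbers at -0.102 to 0.021. Same numbers thus tended to correlate more, although not every library correlated best with its own number. The labels gave no pairing, and the main fit did not treat the libraries as pairs. DESeq2's test, its size factors in edgeR and a stricter count filter changed no member's call. A change of sign was counted only for a value past the test in either fit. Fitted with beta and alpha alone, Syt6, Syt17 and Rims1 fell under the count filter and have no value. The 9 members with too few counts were not tested.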
